A study of Temnothorax rugatulus with 32 samples.

Results

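The brains of 8 old and 8 young queens of the ant Temnothorax rugatulus were compared by RNA sequencing, and they make up 16 of the 32 libraries of the series. A library was taken as a brain when its name carried the brain suffix and as old or young by its age label, and each library holds the brain of 1 queen. The queens were collected in the field, and their fat bodies gave the other 16 libraries. The labels give neither an age in years, a colony nor a genotype, and no treatment was applied. Reads had been counted on the contigs of a de novo transcript assembly, where contigs whose names differ only in the last index form 1 assembly component. The study asked which genes change expression as long-lived queens age. In bulk tissue, fewer cells of a type and less RNA per cell cannot be told apart.

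The insect brain receives sensory input from the antennae and eyes and integrates it in the mushroom bodies, and it also holds neurosecretory cells that control hormone release and reproduction. Transmission depends on receptors and ion channels, on transporters that clear transmitters from the synapse, and on glia that feed neurons and take up such compounds. Cytochrome P450 enzymes oxidise fatty acids, hormones and foreign compounds, and members of the CYP9 family are known in insects for the metabolism of plant toxins and insecticides.

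Total counts were 13861667 to 27434445 in old brains and 23826705 to 33461227 in young brains, so the old libraries were the shallower ones (mean 22276058 against 27823312; exact two-sided permutation test, p = 0.0244, adjusted over 5 library measures 0.061). Described neuronal markers summed to 22.1 to 35.4 CPM (counts scaled to the library size) in old and 24.3 to 32.7 CPM in young brains, over 3 contigs of an acetylcholine receptor and synaptobrevin, and none of them was at 0. The glial transporter contig for excitatory amino acids lay at 75.9 to 161 CPM in old and 68.1 to 111 CPM in young brains. The highest values, 161 and 140 CPM, were those of old queens O-603 and O-796. Contigs that the authors list as at least log2 = 5 higher in the fat body in both ages, 506 in all, held 0.107% to 0.585% of the counts of old brains and 0.0716% to 1.35% of those of young brains, where 1 young library (Y-361) was highest. Of the fat body markers 3 of 11 contigs were at 0 in every brain. No contig with a best hit in an ant was described as a germline, virus or parasite gene. Markers were sought only among such contigs, so best hits in viruses or parasites themselves were not covered. The fat body markers summed to 198 to 649 CPM in old and 161 to 464 CPM in young brains, and haemocyte, gland and gut markers overlapped between the ages. The single photoreceptor marker, arrestin, was at 0.16 to 0.807 CPM in old brains (median 0.434) and 0.45 to 2.23 CPM in young ones (median 0.859), a log2 difference of -1.09 ± 0.38. Of 2 muscle markers the 1 tested, tropomyosin-1, was at 4.23 to 17.6 CPM (median 5.97) and 3.49 to 21.3 CPM (median 15.5), a log2 difference of -0.83 ± 0.37. Both had an unadjusted p under 0.05, and neither passed the adjusted test (edgeR adjusted p = 0.905 and 1). The sums of their components differed by 0.10 and 0.023, in the other direction. A scarce troponin C contig (TR46597c0_g1_i1), also a muscle protein, was not tested here. The authors list it as higher in old brains (log2 2.50).

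The old brains of queens O-603 and O-796 stood apart from the other 14 libraries on the first principal component, which held 12.6% of the variance. In both of them 112 contigs lay over 2-fold above every other brain, of which 1 has a description, and 129 lay over 2-fold below. These 2 libraries were singled out because they stood apart in the same values. Counts for other pairs of brains are not given, so these counts do not show how unusual the pair is. A component of 9 contigs without a description reached 3161 and 1853 CPM in O-603 and O-796, against at most 156 CPM in the other old and 404 CPM in the young brains. Of levels joined by "against", the first is that of old brains. Results are given with all 16 brains, and without these 2 libraries where that moves them.

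More contigs were detected in old brains at equal depth. When every library was thinned to 13861667 counts, old brains showed 83276 to 96902 contigs with at least 1 count (median 88210) and young brains 73665 to 85885 (median 81425). The ranges overlapped, with 6 of the 8 old brains above the highest young one. The means were 88581 ± 4253 (SD, n = 8) and 80939 ± 3570, a difference of 7642 contigs (exact permutation test, two-sided, p = 0.00109, adjusted 0.00544). The same direction was found with a minimum of 5 counts (47339 ± 1335 against 44713 ± 1059, adjusted p = 0.00311, exact permutation test) and when whole components were counted (66711 ± 4014 against 59574 ± 3047, adjusted p = 0.00389, exact permutation test). It was 8620 contigs without queens O-603 and O-796 (adjusted p = 0.005, exact permutation test). Depth differed between the groups in the same libraries, and its part in the result was not tested. The 5 old brains whose total count lay within the young range had 84101 to 90887 contigs.

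The share of counts taken by the 100 most abundant brain contigs was 19.2% ± 1.94 in old and 21.1% ± 1.46 in young brains (mean ± SD, n = 8 each). That difference did not pass the test after adjustment (exact permutation test, two-sided, p = 0.0488, adjusted 0.0813). Without queens O-603 and O-796 the old mean was 18.5% and the adjusted p 0.0233 (exact permutation test). The median log2 difference also shifted with abundance. When the 40572 tested contigs were divided into 4 equal bins by mean level, it was 0.04 in the least abundant bin, where 53.8% were higher in old brains, and -0.02 in the most abundant bin, where 46.2% were. Without queens O-603 and O-796 these values became 0.07 with 56.4% and -0.06 with 38.5%.

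**Figure D1:**
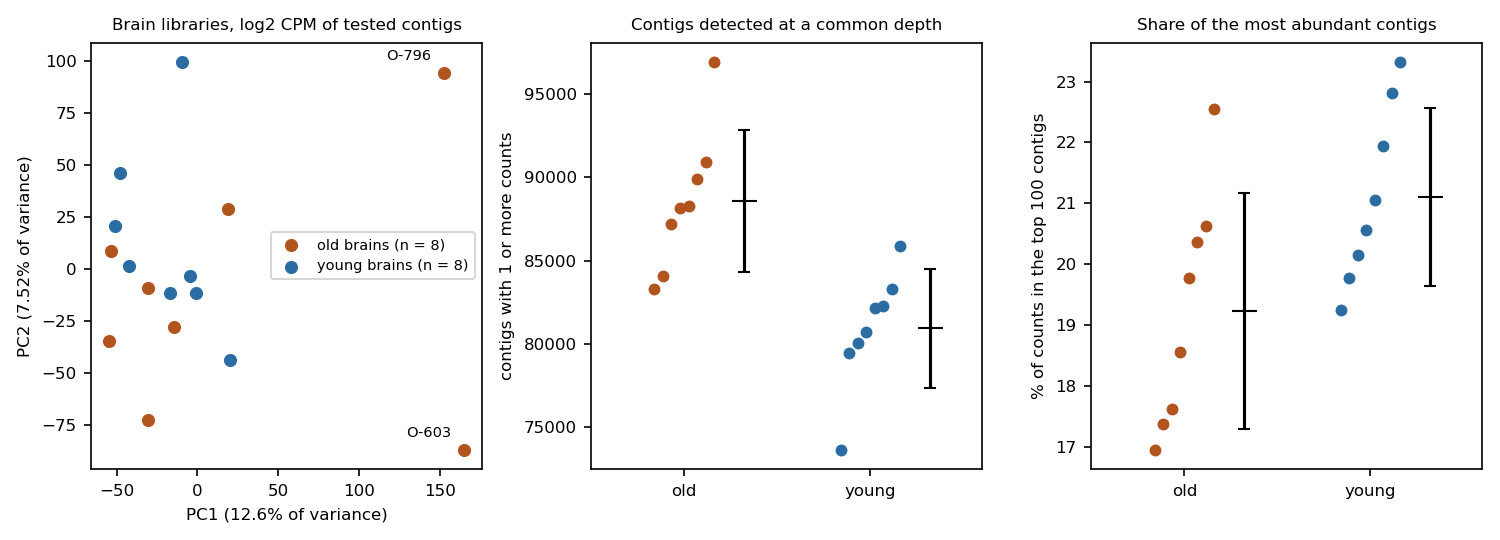
The 16 brain libraries by age: first against second principal component of log2 CPM, contigs detected after thinning to a common depth, and the percent of counts in the 100 most abundant contigs. Points are libraries, sorted by value within a group, and bars beside them are mean ± SD (n = 8); 2 old brains lie apart on the first component, and 6 of 8 old brains have more detected contigs than any young one.

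No single contig passed the test for age. With edgeR's quasi-likelihood test and Benjamini-Hochberg adjustment, 0 of 40572 contigs (0.0%) had an adjusted p under 0.05, and the smallest was 0.302. An unadjusted p under 0.05 was reached by 1882 contigs (4.64%), 1110 of them higher (2.74%) and 772 lower (1.9%) in old brains. Summed per component, 0 of 26753 passed (0.0%), with 1824 (6.82%) at an unadjusted p under 0.05. Limma-voom also called none, whereas DESeq2 called 623 of 208851 contigs (0.298%), 489 of them higher in old brains. Without queens O-603 and O-796 the DESeq2 calls were 192 higher and 169 lower. The fit without queens O-603 and O-796 again called 0, with 2686 contigs at an unadjusted p under 0.05, but 1201 of these were higher and 1485 lower, so the excess on the higher side turned round. The median standard error of a log2 difference was 0.34. For 20400 contigs (50.3%) the whole 95% interval lay within a 2-fold change either way, and for the other contigs it reached beyond 2-fold.

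In 21 contigs (0.0518%) the 8 old and 8 young brains did not overlap, with 14 higher in old brains (0.0345%) and 7 lower (0.0173%). Of these 10 have a best hit in an ant and 11 have no description. Names come from the descriptions in the authors' deposited age tables, which cover only contigs that the authors selected for age in the brain or the fat body of these libraries. The counts below over named contigs are therefore no independent evidence of a direction.

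Of the contigs named for their small p, the first described are those of neurotransmission and membrane transport that lay higher in old brains. The lists of these functions were balanced, with 4 higher and 3 lower synaptic contigs and 15 higher and 12 lower transporters, and 1 against 1 and 2 against 2 at an unadjusted p under 0.05. The contig of sodium- and chloride-dependent glycine transporter 1 (TR73380c0_g1_i1), which in vertebrates removes glycine from the synapse, stood at 12.8 to 24.9 CPM in old brains (median 22.1) and at 5.44 to 12.5 CPM in young ones (median 11.2). All 8 old brains were above all 8 young ones. The log2 difference was 0.96 ± 0.19 (SE, n = 8 and 8; edgeR adjusted p = 0.363), a 1.94-fold higher level. Its component of 2 contigs differed by 0.62 ± 0.15.

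The contig of the probable G-protein coupled receptor 158 (TR74819c1_g3_i2), a receptor known in mammals as a metabotropic glycine receptor, was at 113 to 147 CPM in old brains (median 120) and at 77.9 to 103 CPM in young ones (median 99.4). The groups did not overlap, and the difference was small and narrow, at a log2 of 0.36 ± 0.07 (edgeR adjusted p = 0.375). A contig of the alpha-7-like subunit of the neuronal acetylcholine receptor (TR58554c1_g1_i1), a cation channel opened by acetylcholine, was at 6.04 to 14 CPM in old brains (median 8.01) and 3.07 to 6.25 CPM in young ones (median 5.27). Only 1 old brain fell inside the young range. Its log2 difference was 0.85 ± 0.21 (edgeR adjusted p = 0.553), and that of its component 0.42 ± 0.13.

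The cAMP-specific phosphodiesterase contig (TR70201c0_g1_i1), an enzyme that breaks down the second messenger cAMP, stood at 15.3 to 29.6 CPM (median 21.7) in old and 9.73 to 16.9 CPM (median 12.9) in young brains. Its log2 difference of 0.76 ± 0.17 (edgeR adjusted p = 0.402) was nearly that of its 4-contig component, 0.73 ± 0.17. All 8 old brains were above the young median, and 2 of them lay inside the young range.

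Band 3 anion transport protein, a chloride and bicarbonate exchanger in vertebrates, was represented by contigs of separate components that both lay higher in old brains. Both names begin with TR67726c0, and whether they are parts of 1 gene was not tested. TR67726c0_g1_i1 was at 49.9 to 72.7 CPM in old brains (median 67.3) and 29.3 to 54.4 CPM in young ones (median 44.8), with a log2 difference of 0.57 ± 0.12 (edgeR adjusted p = 0.363). TR67726c0_g2_i2 was at 22 to 38.5 CPM (median 29.6) against 12.9 to 27.7 CPM (median 19.9), with a log2 difference of 0.64 ± 0.15 (edgeR adjusted p = 0.529). In each, 1 old brain lay inside the young range.

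A small difference without overlap was seen for phosphatidate phosphatase LPIN3 (TR66363c0_g1_i1), a lipin that makes diacylglycerol for lipid synthesis. It stood at 202 to 211 CPM in old brains (median 206) and 160 to 192 CPM in young ones (median 178), a log2 difference of 0.21 ± 0.05 (edgeR adjusted p = 0.575). Every old brain lay above every young one.

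Further named contigs higher in old brains included a secreted protease and contigs of microtubule proteins, while the list of cytoskeleton and traffic held 9 higher and 11 lower contigs. The contig of a disintegrin and metalloproteinase with thrombospondin motifs 7-like (TR75553c0_g3_i2), a secreted protease of matrix proteins, stood at 13 to 56.9 CPM in old brains (median 32.1) and 4.45 to 15.4 CPM in young ones (median 10.9). Its log2 difference was 1.66 ± 0.30 (3.16-fold; edgeR adjusted p = 0.302), and the component sum gave 1.59 ± 0.28 with an edgeR adjusted p over components of 0.124. A second component with the same description (TR75553c0_g4_i1) was at a lower level, 0.554 to 6.25 CPM against 0.257 to 1.48 CPM, and differed by 1.92 ± 0.45. In both, 1 old brain lay inside the young range. Their names share the stem TR75553c0, so they may not be separate genes, which was not tested.

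Cytosolic carboxypeptidase 1-like (TR74142c0_g1_i2), whose mammalian relative trims glutamates from tubulin tails, was at 3.81 to 7.68 CPM in old brains (median 6.73) and 1.47 to 4.49 CPM in young ones (median 2.8), a log2 difference of 1.11 ± 0.25 (edgeR adjusted p = 0.402). A tubulin beta chain-like contig (TR66014c0_g1_i4) was at 4.98 to 8.73 CPM against 1.95 to 4.84 CPM with no overlap, and differed by 0.80 ± 0.21 (edgeR adjusted p = 0.626). The component of the carboxypeptidase differed by 0.94 ± 0.23 and that of the tubulin contig by 0.32 ± 0.19. Protein FAM200A-like (TR71105c2_g2_i1) was scarce, at 1.41 to 4.81 CPM in old and 0.032 to 1.46 CPM in young brains, with a log2 difference of 2.74 ± 0.58 (edgeR adjusted p = 0.375).

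**Figure D2:**
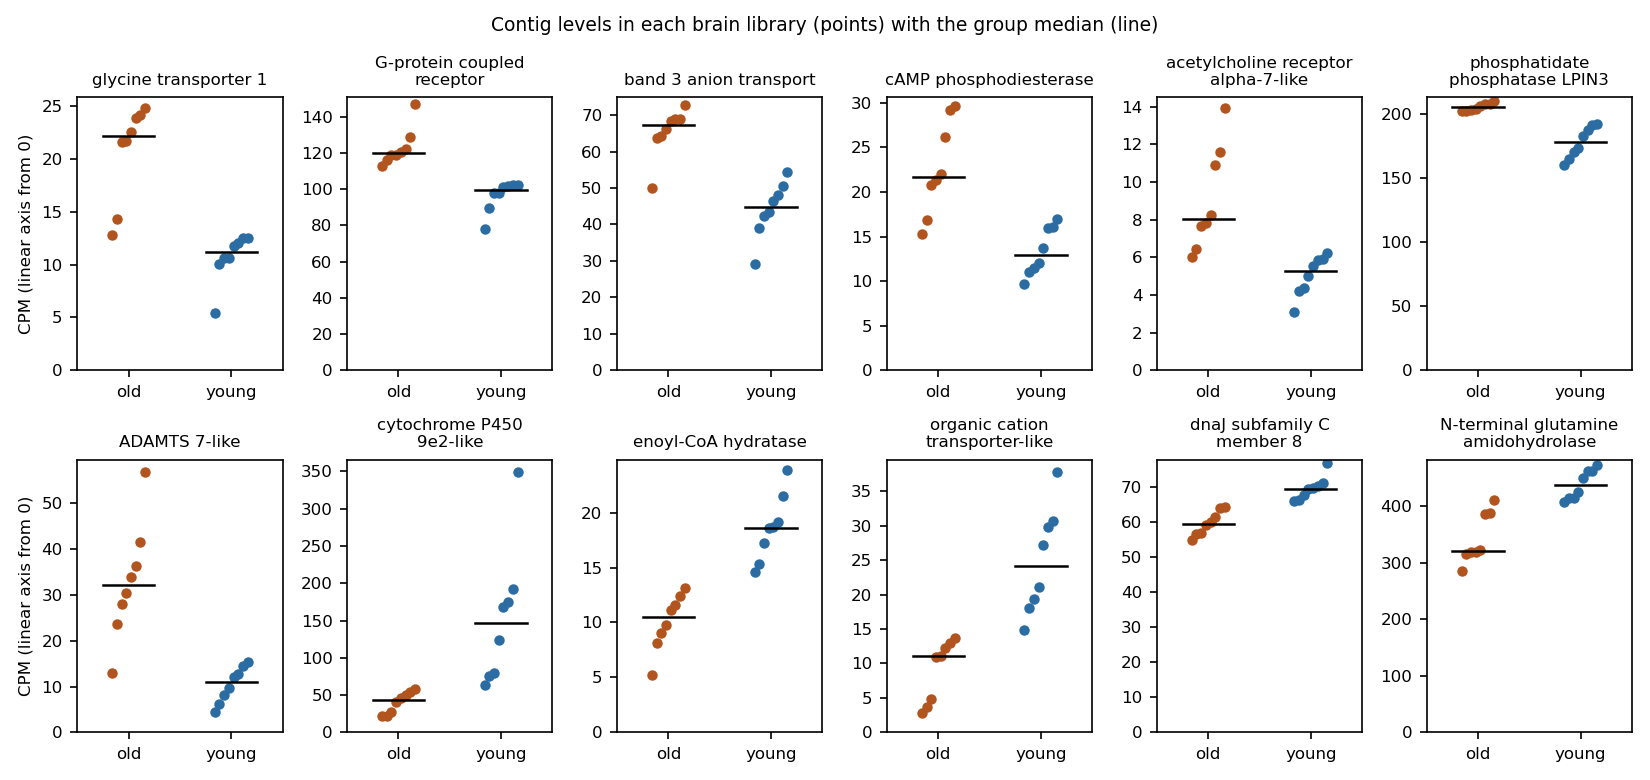
CPM of 12 named contigs in each of the 8 old and 8 young brains, on linear axes from 0. Points are libraries sorted by value, and lines are group medians; the first 7 panels lie higher in old brains and the other 5 lower, and glycine transporter 1, GPCR 158, LPIN3, the P450 9e2-like contig, enoyl-CoA hydratase, the organic cation transporter-like contig and dnaJ subfamily C member 8 show no overlap.

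On the lower side stood most contigs described as cytochrome P450 9e2-like. Of 7 tested contigs with this description, from 5 components, 6 lay lower in old brains and 1 higher, and 5 of the 6 had an unadjusted p under 0.05, against 1.9% of all contigs. The authors had selected 5 of the 7 for age in these brains. The most abundant source was 1 component of 4 contigs, 3 of them described, at 521 ± 274 CPM in young brains and 163 ± 46.2 CPM in old ones (mean ± SD, n = 8 each). Its log2 difference was -1.68 ± 0.30 (edgeR adjusted p over components = 0.124). Within it, TR75872c6_g1_i2 stood at 21.6 to 57.7 CPM in old brains (median 43.4) and 63.2 to 349 CPM in young ones (median 146), without overlap. TR75872c6_g1_i1 and TR75872c6_g1_i4 ranged from 35.1 to 97.9 CPM and from 35.1 to 86.1 CPM in old brains, and from 51.1 to 376 CPM and from 47.5 to 338 CPM in young ones, where 5 old brains lay inside the young range each time. These 3 contigs share a component and are not separate genes on this evidence.

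Other P450 9e2-like contigs came from other components. TR64789c0_g1_i7 was at 2.89 to 13.9 CPM in old and 7.28 to 33.4 CPM in young brains, a log2 difference of -1.42 ± 0.35 (edgeR adjusted p = 0.553), and its component of 7 contigs differed by -0.96 ± 0.27. The exception, TR71642c1_g1_i1, was at 0.417 to 2.71 CPM in old and 0.257 to 0.512 CPM in young brains, a log2 difference of 1.71 ± 0.38 (edgeR adjusted p = 0.402), near the lower limit of what these libraries measure. The 2 contigs of P450 CYP12A2-like and 6k1-like, from other families, had log2 differences of 0.26 ± 0.16 and 0.62 ± 0.63.

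An organic cation transporter protein-like contig (TR68954c0_g1_i2), a member of the membrane carriers for charged metabolites and drugs, was at 2.86 to 13.7 CPM in old brains (median 11) and 14.9 to 37.8 CPM in young ones (median 24.1). The groups did not overlap, and the log2 difference was -1.46 ± 0.33 (edgeR adjusted p = 0.485), with -0.90 ± 0.18 for its component. The probable mitochondrial enoyl-CoA hydratase contig (TR76472c4_g1_i2), an enzyme of fatty acid beta-oxidation, was at 5.24 to 13.2 CPM (median 10.5) against 14.5 to 23.9 CPM (median 18.6). It too was separate between the ages, at a log2 of -0.89 ± 0.18 (edgeR adjusted p = 0.363), while its component differed by -0.40 ± 0.22.

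Further contigs on the lower side differed by less. Protein N-terminal glutamine amidohydrolase (TR69222c0_g1_i1), an enzyme that marks proteins for degradation by changing their first residue, stood at 285 to 410 CPM in old brains (median 321) and 407 to 473 CPM in young ones (median 437), a log2 difference of -0.35 ± 0.08 (edgeR adjusted p = 0.402). Only 1 old brain reached into the young range. DnaJ homolog subfamily C member 8 (TR73201c15_g18_i3), of the co-chaperones that partner Hsp70, was at 54.9 to 64.2 CPM against 66.1 to 76.6 CPM without overlap, and differed by -0.22 ± 0.06 (edgeR adjusted p = 0.636).

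For some named contigs the difference lay largely in which contig of a component took the counts, and the component total differed by less. Of 28 named ant contigs of the authors' brain table that were tested, 15 higher and 13 lower in old brains, 23 belong to a component of several contigs. In 13 of these the component differed by at least 50% of the contig's log2 difference, as for the P450, the metalloproteinase and the phosphodiesterase. In the other 10 it differed by less, or the other way. The authors' counts can split reads among similar contigs of 1 component, so the values of these contigs are less certain than their sums.

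Coatomer subunit beta (TR60265c0_g1_i2), part of the coat of vesicles that return from the Golgi apparatus, was one of them. Its contig was at 13.2 to 20.2 CPM in old brains (median 16.9) and 18 to 120 CPM in young ones (median 78.8), a log2 difference of -1.96 ± 0.39 (edgeR adjusted p = 0.363). The component of 2 contigs stood at 114 ± 13 CPM in young brains and 110 ± 11.6 CPM in old ones (mean ± SD, n = 8 each), a log2 difference of -0.06 ± 0.08. The contig held 13.5% to 16.8% of its component in all 8 old brains and 14.9% to 16.8% in 3 young ones, but 80.7% to 100% in the other 5 young brains (Y-102, Y-134, Y-453, Y-503 and Y-651). No brain lay between these levels.

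The contig of kinase D-interacting substrate (TR75157c0_g1_i3), a membrane scaffold of neurotrophin signalling in mammals, stood at 8.86 to 46.3 CPM in old brains (median 33.6) and 3.92 to 13.1 CPM in young ones (median 6.52), a log2 difference of 2.04 ± 0.37 (edgeR adjusted p = 0.302). It was also 1 of the 4 contigs called when all 32 libraries shared a fit (log2 2.02, adjusted p = 0.0335, edgeR). It made up 14.4% ± 6.84 (SD, n = 8) of its 10-contig component in old and 3.9% ± 1.98 in young brains, and the component as a whole differed by 0.12 ± 0.07.

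Thioredoxin domain-containing protein 11 (TR37339c0_g2_i1), of the redox proteins of the endoplasmic reticulum, held 32.7% ± 7.11 of its component in old and 15% ± 10 in young brains, with log2 differences of 1.34 ± 0.31 for the contig and 0.20 ± 0.07 for the component. For dnaJ homolog subfamily B member 6 (TR36505c0_g1_i3), a co-chaperone that limits protein aggregation in mammals, the shares were 4.92% ± 1.71 and 12.9% ± 5.06, with -1.43 ± 0.30 for the contig and -0.06 ± 0.10 for the component. Tumor protein p53-inducible nuclear protein 2 (TR52345c1_g1_i2), an autophagy factor in mammals, differed by 1.24 ± 0.30 as a contig and 0.05 ± 0.10 as a component. The solute carrier family 22 member 3-like contig (TR69393c0_g1_i2) differed by -1.98 ± 0.47, whereas its component differed by 0.11 ± 0.24 in the other direction.

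**Figure D3:**
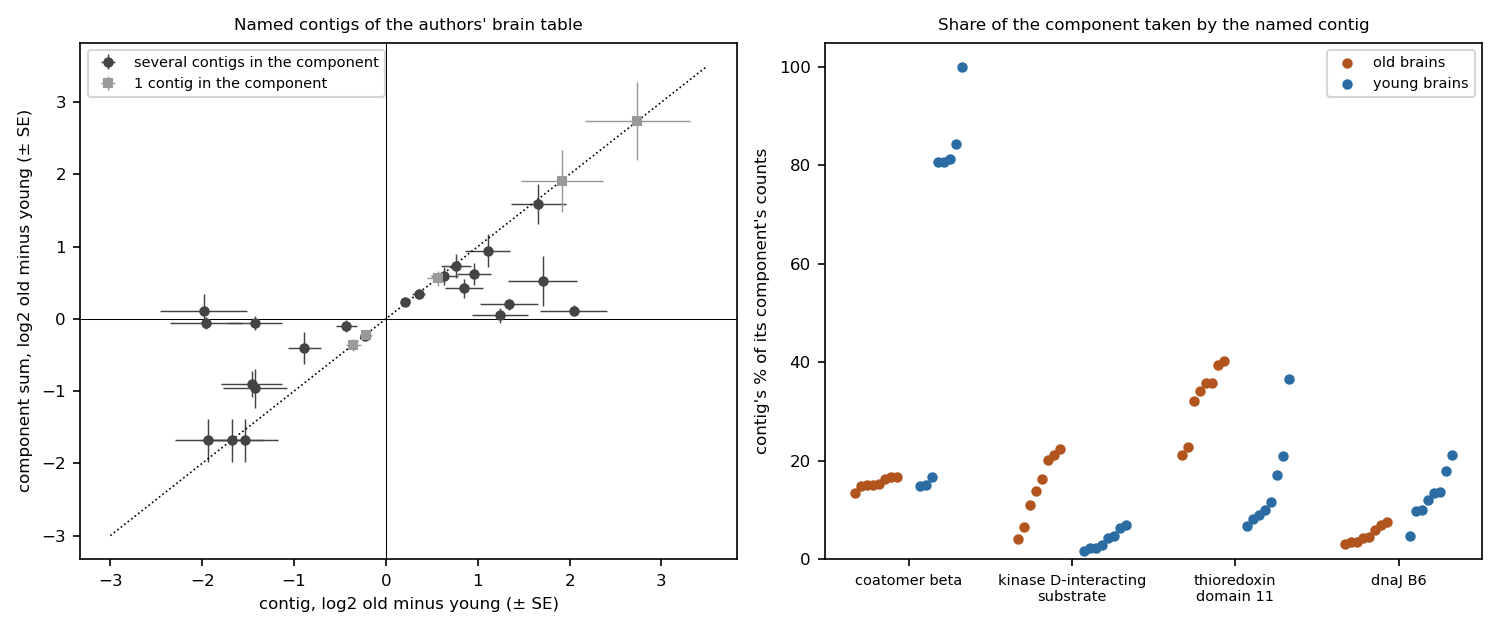
Left, log2 old minus young of each of the 28 named ant contigs of the authors' brain table against that of its assembly component, with standard errors and a dotted line of equality. Right, percent of the component's counts held by the named contig in each brain; coatomer beta sits near 15% in every old brain and in 3 young ones, and at 80.7% or more in the other 5.

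The same contigs were set beside the fat bodies of the same 16 queens. Of the 28 named contigs, 23 were also tested there, 17 with the same direction and 6 with the opposite one, and 0 of them passed the test in the fat body (edgeR, 179 of 27664 contigs called there, 0.647%). The authors had selected the 28 for age in these brains, and the tissues of 1 queen are not independent. The share of all contigs with the same direction in both tissues is not given here. The 17 are therefore no evidence of agreement between the tissues. The metalloproteinase contig TR75553c0_g3_i2 differed by 2.50 ± 1.14 in the fat body and the kinase D-interacting substrate contig TR75157c0_g1_i3 by 1.16 ± 0.30. P450 9e2-like TR75872c6_g1_i2 differed by -1.71 ± 1.10 there, at 21.8 ± 13.6 CPM in young queens and 6.68 ± 6.79 CPM in old ones (mean ± SD, n = 8 each). For these the test of a difference between the tissues did not pass (interaction, edgeR adjusted p = 0.966, 0.587 and 1).

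Coatomer subunit beta TR60265c0_g1_i2 was the only one of the 23 to pass the interaction test when the queen was not a block. With the queen as a block it did not pass. It was at 14.4 ± 1.82 CPM in young fat bodies and 35.9 ± 33.4 CPM in old ones (mean ± SD, n = 8 each), and the brain difference minus the fat body difference was -3.30 ± 0.57 on the log2 scale (edgeR adjusted p = 0.00847; 0.189 with the queen as a block). High values in the fat body belonged to old queens O-796 and O-482, at 106 and 67.8 CPM, whose brains were at 20.2 and 15.5 CPM. The 5 young queens with high brain values had 12.7 to 16.8 CPM in the fat body. The interaction called 109 of 48253 contigs (0.226%), and 2 (0.00414%) with the queen as a block. DnaJ homolog subfamily B member 6 also pointed in opposite directions, with 53.4 ± 26.6 and 25.1 ± 18.6 CPM in old and young fat bodies, but its interaction did not pass (edgeR adjusted p = 0.0946).

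**Figure D4:**
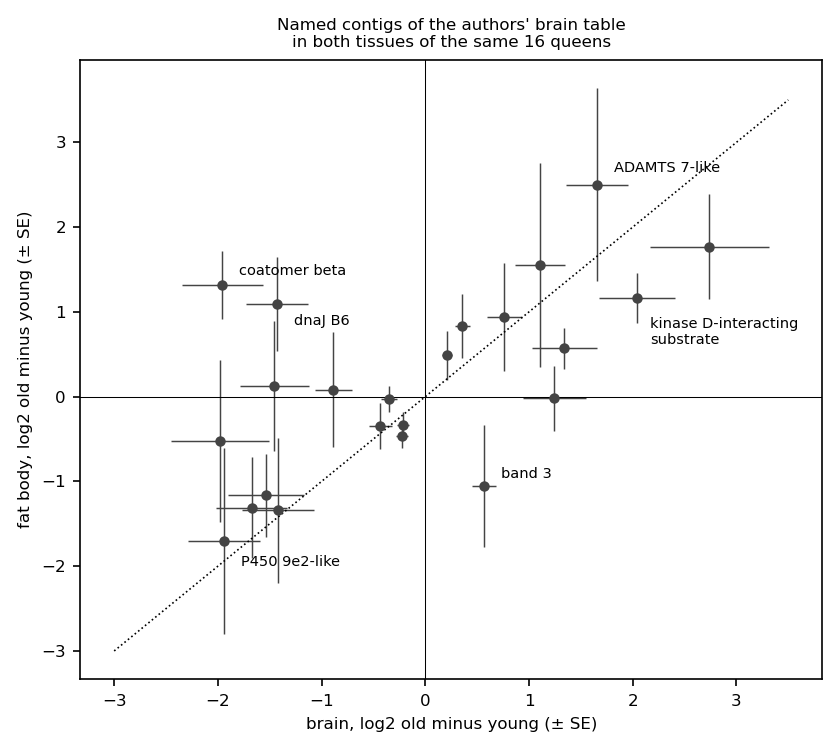
Log2 old minus young in the brain against that in the fat body of the same queens, for the 23 named contigs of the authors' brain table tested in both tissues. Bars are standard errors and the dotted line marks equality; 17 contigs have the same sign in both tissues, and coatomer beta and dnaJ B6 lie in the opposite quadrant.

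Beyond single contigs, 645 tested contigs have an ant hit and were sorted into lists by words in their descriptions. Over these, the median log2 difference was -0.04, against 0.01 over all 40572, and 55 had an unadjusted p under 0.05 on the higher and 66 on the lower side. Of all contigs these shares are 2.74% and 1.9%. The authors had selected 37 of the 645 for age in these brains, and all 37 are among those at an unadjusted p under 0.05. The other 608 held 34 higher and 50 lower ones. With edgeR none of the 645 passed the adjusted test, whereas DESeq2 called all 37 of the authors' brain table. Without queens O-603 and O-796 both medians were lower, at -0.13 and -0.01.

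Contigs of ribosomal proteins, which build the translation machinery, lay lower in old brains in 22 of 23 cases. Of all 40572 tested contigs 19767 were lower, and of the 645 ant hits 356. The median of the ribosomal contigs was -0.29, or -0.45 without queens O-603 and O-796. The S23 and L10a contigs given below lie in the most abundant bin of tested contigs. In that bin 46.2% were higher in old brains, or 38.5% without queens O-603 and O-796. Of the 23 ribosomal contigs 7 had an unadjusted p under 0.05, all lower, against 1.9% of all contigs. Of the 608 ant hits that the authors selected in the fat body alone, 50 were lower at that threshold. The median of those 608 was -0.04, or -0.14 without queens O-603 and O-796. The ribosomal protein S23 contig was at 587 ± 76.9 CPM in young brains and 480 ± 100 CPM in old ones (mean ± SD, n = 8 each), and that of L10a (TR56859c0_g2_i1) at 139 to 230 CPM against 179 to 359 CPM. All 6 contigs of translation factors were lower as well, with a median of -0.16. The initiation factor 4A-I contig TR49950c0_g1_i1, an RNA helicase, was at 622 to 906 CPM in old brains (median 747) and 760 to 1336 CPM in young ones (median 944), a log2 difference of -0.38 ± 0.11 (edgeR adjusted p = 0.812). None of the tested contigs of either list comes from the authors' brain table. That table does hold a scarce ant-hit contig of ribosomal protein L18 (TR45833c0_g1_i1), higher in old brains by the authors' log2 of 3.06. It fell below the count filter and was not tested here.

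The detoxification list had 15 tested contigs, 10 lower and 5 higher in old brains. Its median was -0.35, and -0.52 without queens O-603 and O-796. On the lower side 5 contigs had an unadjusted p under 0.05, against 1.9% of all contigs and 66 of the 645 ant hits. All 5 were P450 9e2-like, 3 of them from 1 component. On the higher side there were 2, against 2.74% of all contigs and 55 of the 645 ant hits. They were the P450 9e2-like contig TR71642c1_g1_i1 and a glucuronosyltransferase. The UDP-glucuronosyltransferase 2C1-like contig (TR75959c3_g2_i1), of the enzymes that couple sugars to toxins, lay at 1.27 to 11.4 CPM against 0.64 to 3.57 CPM, with the groups overlapping, and differed by 1.09 ± 0.46. Its highest values were those of O-603 and O-796, at 11.4 and 4.88 CPM, and all other old brains lay inside the young range. Without those 2 queens its component sum was lower in old brains. Another member, the ABC transporter G1-like contig (TR74433c3_g1_i5), a lipid exporter in mammals, was at 10.3 to 23.1 CPM against 8.84 to 45.5 CPM in the brain, and at 56.7 ± 23.7 CPM in young fat bodies and 179 ± 64 CPM in old ones (mean ± SD, n = 8 each). Its age difference in the brain minus that in the fat body was -2.05 ± 0.42 (edgeR adjusted p = 0.0251; 0.249 with the queen as a block). The transporter list of 27 contigs had a median of 0.03. The facilitated glucose transporter member 1-like contig averaged 213 CPM in young and 226 CPM in old brains, a log2 difference of 0.08 ± 0.10.

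In the list of synaptic and neuronal signalling, the median of 7 contigs was 0.10. Besides the acetylcholine receptor it holds neuroligin-1-like (TR69138c0_g1_i1), a synaptic adhesion protein, at 127 to 212 CPM in old and 174 to 309 CPM in young brains, a log2 difference of -0.28 ± 0.13 (edgeR adjusted p = 1). Semaphorin-5B (TR67209c0_g1_i1), an axon guidance protein, was at 37.4 to 73.3 CPM against 36.8 to 53.2 CPM. In the fat body it stood at 294 ± 127 CPM in young queens and 1595 ± 498 CPM in old ones (mean ± SD, n = 8 each). Its age difference in the brain minus that in the fat body was -2.20 ± 0.37 on the log2 scale (edgeR adjusted p = 0.00756; 0.0574 with the queen as a block).

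The sensory list held 3 tested contigs, all scarce and all lower in old brains, 2 of them at an unadjusted p under 0.05. On the lower side that threshold was reached by 1.9% of all contigs and 66 of the 645 ant hits. One of the 2 is the arrestin contig (TR74560c0_g1_i2) given above, and it holds the list median of -1.09. The sum of the arrestin component went in the other direction. Pheromone-binding protein Gp-9-like (TR35576c0_g1_i1), of the odorant-binding proteins, was scarce in the brain, at 0 to 1.23 CPM in old (median 0.0571) and 0.375 to 8.62 CPM in young brains (median 1.55). All 8 old brains were below the young median, and the log2 difference was -3.34 ± 0.99 (edgeR adjusted p = 0.768). In the fat body, scaled on its own, it stood at 64.7 ± 58.1 CPM in young queens and 8.01 ± 5.89 CPM in old ones (mean ± SD, n = 8 each). Contigs of the fat body held up to 1.35% of the counts of a brain library, and their part in this value was not tested. The odorant receptor 4-like contig averaged 0.425 CPM in young and 0.413 CPM in old brains, a log2 difference of -0.03.

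Immunity contigs had a median of 0.43 with 4 of 5 higher in old brains, which became -0.01 without queens O-603 and O-796. Transferrin, an iron carrier of the haemolymph, was at 311 ± 124 CPM in young brains and 421 ± 147 CPM in old ones (mean ± SD, n = 8 each), and is also the only tested contig of the fat body markers. The toll-like receptor 3 contig was at 22.4 to 167 CPM in old brains (median 38.9), highest in O-796 and O-603, and at 14.3 to 182 CPM in young ones (median 20.4), where all but Y-102 lay at or below 21.9 CPM. The antioxidant list moved from a median of 0.31 to 0.10 in the same way. It holds 5 contigs, among them peroxidase-like, with 17.1 ± 2.91 CPM in old brains and 13.7 ± 2.04 CPM in young ones. Peptide methionine sulfoxide reductase was at 25.4 to 217 CPM in old brains (median 44.1), where O-796 alone was above 57.1 CPM, and at 18.9 to 85.5 CPM in young ones (median 28.3). No superoxide dismutase or catalase contig with an ant hit was among the described contigs.

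Among lists of other cell functions, medians were -0.06 for mitochondrial proteins other than ribosomal ones (22 contigs), -0.07 for the proteasome, ubiquitin and autophagy (20), -0.08 for the cytoskeleton and traffic (20), -0.12 for chromatin (14), -0.13 for DNA repair (4), -0.10 for RNA processing (21), -0.22 for chaperones (7) and 0.01 for lipid metabolism (11). The chaperone median is that of dnaJ C8, and 2 of the 7 chaperones come from the authors' brain table. In the cytoskeleton and traffic list 6 contigs had an unadjusted p under 0.05 on the lower side and 2 on the higher side. Of all contigs these shares were 1.9% and 2.74%, and of the 645 ant hits 66 were lower and 55 higher. The lower ones were coatomer beta, subunits 2 and 4 of dynactin, which links dynein to its cargo, the vesicle motor myosin-Va, the endosomal sorting protein VTA1 and the muscle marker tropomyosin-1. Dynactin subunit 4 (TR566c0_g1_i1) was at 369 to 682 CPM in old brains (median 484) and 489 to 1014 CPM in young ones (median 630), and unconventional myosin-Va (TR70705c0_g1_i1) at 437 to 525 CPM and 474 to 584 CPM. Their log2 differences were -0.39 ± 0.16 and -0.17 ± 0.06. The list of transcription factors and kinases (27, median -0.06) also caught phosphatases and the metabolic enzyme phosphoenolpyruvate carboxykinase, whose contig ranged from 0.139 to 265 CPM in old brains (median 5.43), highest in O-796, and from 0.33 to 16.3 CPM in young ones (median 0.66). Krueppel homolog 1-like (TR56466c0_g1_i1), which acts downstream of juvenile hormone in insects, was at 112 to 212 CPM in old brains (median 136) and 142 to 204 CPM in young ones (median 161). Its log2 difference of -0.19 ± 0.12 had a 95% interval from -0.45 to 0.07. Forkhead box protein K1 (TR72411c2_g1_i1), of a transcription factor family tied to insulin signalling in mammals, was at 246 to 312 CPM against 276 to 340 CPM.

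**Figure D5:**
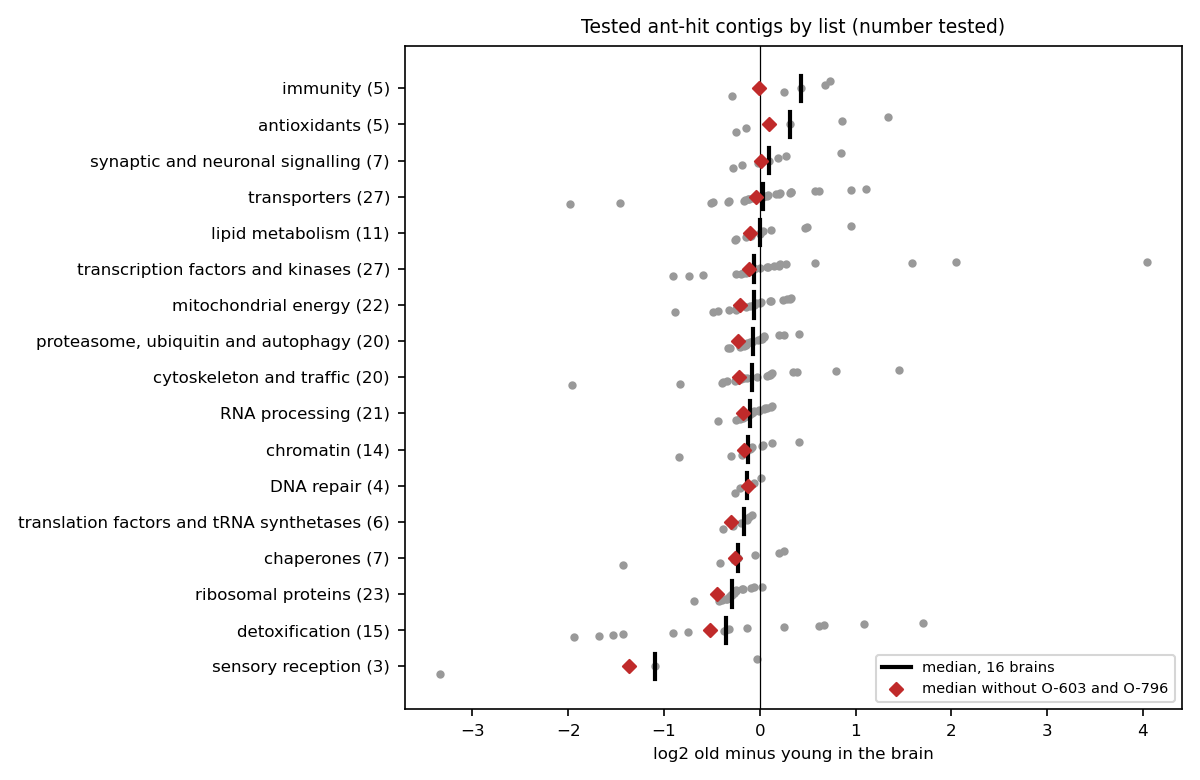
Log2 old minus young of tested ant-hit contigs by list, with the number tested in brackets. Grey points are contigs, black lines the list median over 16 brains and red diamonds the median without old queens O-603 and O-796; the ribosomal proteins lie to the left of 0 in 22 of 23 cases, and the immunity median moves from 0.43 to -0.01.

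Contigs without a description held some of the largest differences. TR44260c0_g1_i1 ranged from 1.04 to 202 CPM in old brains (median 36.1) and from 0.321 to 3.1 CPM in young ones (median 1.31), a log2 difference of 5.85 ± 1.03 (edgeR adjusted p = 0.302). O-426 and O-829 lay inside the young range, and O-603 and O-796 were the highest, at 168 and 202 CPM. Without those it was 4.97 (adjusted p = 0.356, edgeR). In the fat body the same contig ranged from 1.36 to 221 CPM in old queens and from 7.97 to 1242 CPM in young ones, where Y-102 alone was above 67.4 CPM.

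TR63657c0_g1_i1 was at 1.04 to 33.2 CPM against 0.214 to 1.24 CPM, a log2 difference of 3.78 ± 0.63, or 2.85 without queens O-603 and O-796. On the lower side, TR68826c0_g1_i1 was at 12.7 to 30.8 CPM in old and 28.4 to 65 CPM in young brains, a log2 difference of -1.18 ± 0.22. TR26491c0_g1_i1 was at 0.522 to 2.32 CPM against 2.52 to 7.76 CPM without overlap, a log2 difference of -1.71 ± 0.32. The edgeR adjusted p was 0.302 for the first and second of these and 0.346 for the last.

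For age in the brain, the authors' deposited table holds 169 contigs, 133 higher and 36 lower in old brains, and the deposited counts gave the same direction for each of the 169. By the count filter used here 56 were tested, all 56 with an unadjusted p under 0.05 but none past the adjusted threshold in edgeR. DESeq2 called all 56 of them, and 141 of the 169. The other 113 were too scarce, summing to 15.4 to 59.8 CPM in old and 5.57 to 8.68 CPM in young brains. Ant hits make up 57 of the 169, 36 of them higher in old brains, and 52 have no description. The authors had selected the 169 for age in these same libraries, so the shared directions and calls are no independent evidence.

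A further 52 contigs of the authors' deposited table have a best hit outside ants, bees and wasps, and all 52 were higher in old brains. Of these 51 fell below the count filter. Together those 51 summed to 1.28 to 31.2 CPM in old brains (median 14.4) and 0 to 0.661 CPM in young brains (median 0.38). The authors had selected these contigs for age in the same libraries, so the sums are a description. The hits were spread over many genera, led by the fruit flies Rhagoletis (18) and Drosophila (6) and the mite Metaseiulus (5), and 17 of the 51 are ribosomal proteins. All described contigs of such hits together took 0.0563% ± 0.00761 (SD, n = 8) of the counts of old and 0.0547% ± 0.00581 of young brains (exact permutation test, two-sided, p = 0.647). This total covers 262 described contigs, of which the 52 are only a part, so it cannot show whether the 51 scarce ones differed.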

How the data were processed

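RNA of 32 libraries was measured, and the 16 brains were analysed here. The authors deposited whole-number counts for 228763 assembly contigs, per the file headers, without scaling. Tools named in the submitters' processing notes, with no roles, are DESeq2 1.2.10, RSEM 1.3.0, Bowtie2, Bowtie, FastQC 0.11.5 and Trimmomatic 0.36. Which assembler was used is not given in the sources used for this text. RSEM, if used for these counts, divides reads between similar contigs. The authors' deposited tables hold a mean normalised signal, a log2 fold change with its error, a test score and p-values, per the file headers. A positive log2 there means higher in young queens, whereas all differences here are old minus young.

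Counts were fitted with edgeR 4.0.16 (TMM scaling, filterByExpr with a minimum count of 10 and minimum total of 15, quasi-likelihood test, Benjamini-Hochberg adjustment, threshold 0.05), on 8 old against 8 young brains. CPM were scaled within a tissue. The interaction with tissue was fitted on all 32 libraries, with the queen as a block as an alternative. A shared number marks the tissues of 1 queen, per the labels, and their deviations from group means correlated across contigs at r = 0.397 to 0.509, against -0.142 to 0.0292 for different queens. Library measures were compared by exact permutation over 12870 splits, whose smallest possible p is 0.000155, and principal components used log2(CPM + 0.5). Alternatives used limma 3.58.1 and DESeq2 1.42.0. Intervals are 95% intervals from the fitted error. The fit was tested on simulated data. The alternatives without O-603 and O-796, and detection counted over components, were chosen after seeing the data.

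Descriptions exist for 1073 contigs, 771 with an ant hit. Named contigs are the 15 ant hits per direction with the smallest p and at least 1 CPM in a group, 1 per description, every named ant hit of the authors' brain table that passed the filter, up to 4 contigs per list, and up to 2 contigs without a description per direction. Lists are word patterns on the descriptions, from which wrongly matched names were removed by hand. Members, rule and lists were chosen with earlier results of these data known.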

Additional observations from a re-analysis of the deposited data

Results flagged for a closer look

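In 80 groups of 8 brains, 5 had 1 library beyond Dixon's 95% limit, near the 5% that chance gives. Glycine transporter 1 (TR73380c0_g1_i1) was lowest in the young brain Y-503, at 5.44 CPM. Band 3 anion transport protein (TR67726c0_g1_i1) was lowest among old brains in O-796, at 49.9 CPM, 1 of the libraries that stood apart. Protein FAM200A-like (TR71105c2_g2_i1) was highest among young brains in Y-651, at 1.46 CPM, and exportin-1 (TR71831c1_g1_i2), a nuclear export receptor, was lowest among young brains in Y-361, at 80.6 CPM. The same young brain had the largest share of counts in fat body contigs, 1.35%.

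For 3 named contigs the age difference in the brain differed from that in the fat body by the interaction test: coatomer subunit beta (TR60265c0_g1_i2) by -3.30, semaphorin-5B (TR67209c0_g1_i1) by -2.20 and the ABC transporter G1-like contig (TR74433c3_g1_i5) by -2.05 on the log2 scale. With the queen as a block none of these 3 passed, at adjusted p of 0.189, 0.0574 and 0.249 (edgeR).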

How the results depend on the processing

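The count of 0 contigs (0.0%) for age held in edgeR under other scalings, filters, robust estimation, thinning and component sums, and in both limma fits. Calls became 0.00829% (4 contigs) with all 32 libraries in 1 fit, 0.298% (623) with DESeq2, 0.466% with DESeq2 after the edgeR filter and 0.182% with DESeq2 without queens O-603 and O-796; leaving out 1 brain in turn gave 0 to 0.0024%, the latter, 1 contig, without O-469. The 1882 contigs at an unadjusted p under 0.05 became 42125 without a count filter, 7692 with DESeq2, 2912 with quality weights, 6323 with DESeq2 without queens O-603 and O-796, 2885 for component sums without them, and 1709 to 2109 with 1 brain left out. The interaction's 109 calls became 2 with the queen as a replicate block and 38 without a filter. Without queens O-603 and O-796 the share of the 100 most abundant contigs differed by -2.62 percentage points and passed, and that of hits outside Hymenoptera by -0.00109, reversed. Of 1948 values of 63 named contigs, 1849 kept direction and side of the threshold. The 7 reversals were component sums: solute carrier 22 member 3-like (TR69393c0_g1_i2) 0.11, ATP synthase subunit s (TR71986c0_g2_i2) 0.16, tropomyosin-1 (contig TR75948c7_g1_i8) 0.023 and arrestin (contig TR74560c0_g1_i2) 0.10, and without queens O-603 and O-796 also UDP-glucuronosyltransferase 2C1-like (TR75959c3_g2_i1) -0.17, Tim23 (contig TR52076c0_g1_i2) -0.0345 and the arrestin contig 0.030. DESeq2 called 34 of the 63. Of 550 list medians 8 moved. These causes were not tested. Contigs without a hit in the authors' age tables carry no name, and the shallowest brain, at 13861667 counts, limits scarce contigs.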
